A study of Homo sapiens with 6 samples.

Results

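The genes described here are the G1 cyclins, the kinases they activate, the inhibitor CDKN1B and the retinoblastoma gene RB1, which are 10 of the 58395 genes listed. They were taken by symbol, as CCND1, CCND2, CCND3, CCNE1, CCNE2, CDK2, CDK4, CDK6, CDKN1B and RB1, and this set was chosen on the comparison reported here with its values already known. The differences between the groups are therefore given for these genes as a description, without a p-value, and no count over them is used as a test. All 10 symbols had an Ensembl identifier in the files, and 9 passed the filter on low counts.

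RNA was sequenced from HCT116, an established human colorectal carcinoma cell line grown in DMEM with serum. The shControl group carried a non-target hairpin and the shSTBD1 group a hairpin against STBD1, a proposed receptor that brings glycogen to autophagosomes. Each group had 3 libraries, and the hairpins had been delivered by lentivirus, followed by drug selection, in both groups. The comparison asks how gene expression changes after STBD1 depletion, with 1 hairpin per group and with no re-expression of STBD1 in the libraries used here.

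A cell enters S phase after its D cyclins bind CDK4 or CDK6 and its E cyclins bind CDK2. Both kinds of complex phosphorylate RB1, a pocket protein that in its unphosphorylated form holds back the E2F transcription factors. CDKN1B, the protein p27, binds these complexes and restrains CDK2, and cells adjust the D cyclins to growth factors while the E cyclins are themselves E2F targets.

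The libraries held between 17689097 and 21668274 expected counts, and no pair of them was identical. They were described as biological replicates, with nothing to say that they came from separate cultures, so the tests measure the spread between these libraries. STBD1 itself was at 5.61 ± 0.299 TPM, the level per transcript length, in shControl and 3.56 ± 0.546 TPM in shSTBD1 (both SD, n = 3), a log2 fold change of -0.64 (SE 0.098, edgeR adjusted p = 2.9e-04), or 35.8% fewer counts. The posterior SD of its count, the uncertainty that RSEM gave for assigning reads to the gene, was at most 10.5% of the count. Of 9 epithelial markers, 6 were above 1 TPM in every library and CEACAM5 was listed at 0 in all, while PTPRC and CD3E of leukocytes were also listed at 0 throughout. The 5 fibroblast markers summed to between 14.6 and 19.6 TPM in shControl and between 17.1 and 20.7 TPM in shSTBD1, nearly all of it COL1A1, and the 3 endothelial markers to at most 0.53 TPM. The summed TPM of the epithelial markers ran from 2858 to 2893 in shControl and from 3242 to 3378 in shSTBD1. Nearly all of this sum was KRT8, KRT18 and KRT19, which like CDH1 were higher in shSTBD1 without overlap. EPCAM overlapped, at 169.4 to 182.5 TPM in shControl and 175.6 to 177.4 TPM in shSTBD1. CDX2 was lower without overlap, at 6.89 to 7.65 TPM in shControl and 4.57 to 6 TPM in shSTBD1. The part of these differences in the results below was not tested. In bulk RNA, fewer cells of a type and less RNA per cell cannot be told apart.

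CCND1 was lower in shSTBD1 than in shControl, CCNE2, CDK2 and CCND3 were higher, and CDK6 was slightly lower. Of the 9 genes tested, 5 passed an adjusted p of 0.05 in the edgeR fit over all genes, 3 of them higher and 2 lower in shSTBD1. Over all 15566 genes tested, 15.8% passed, with 8.22% higher and 7.54% lower, and nothing is read from the difference between these shares because the genes were chosen on this contrast. CCNE1, CDK4, CDKN1B and RB1 did not pass. The values of the groups did not overlap, in CPM, a gene's count as a share of its library's TMM-scaled total, for CCND1, CCND3, CCNE2, CDK2 and RB1, where 33.6% of all tested genes were without overlap. The median log2 fold change of the 9 genes was 0.07, beside 0.002 over all genes tested.

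**Figure D1:**
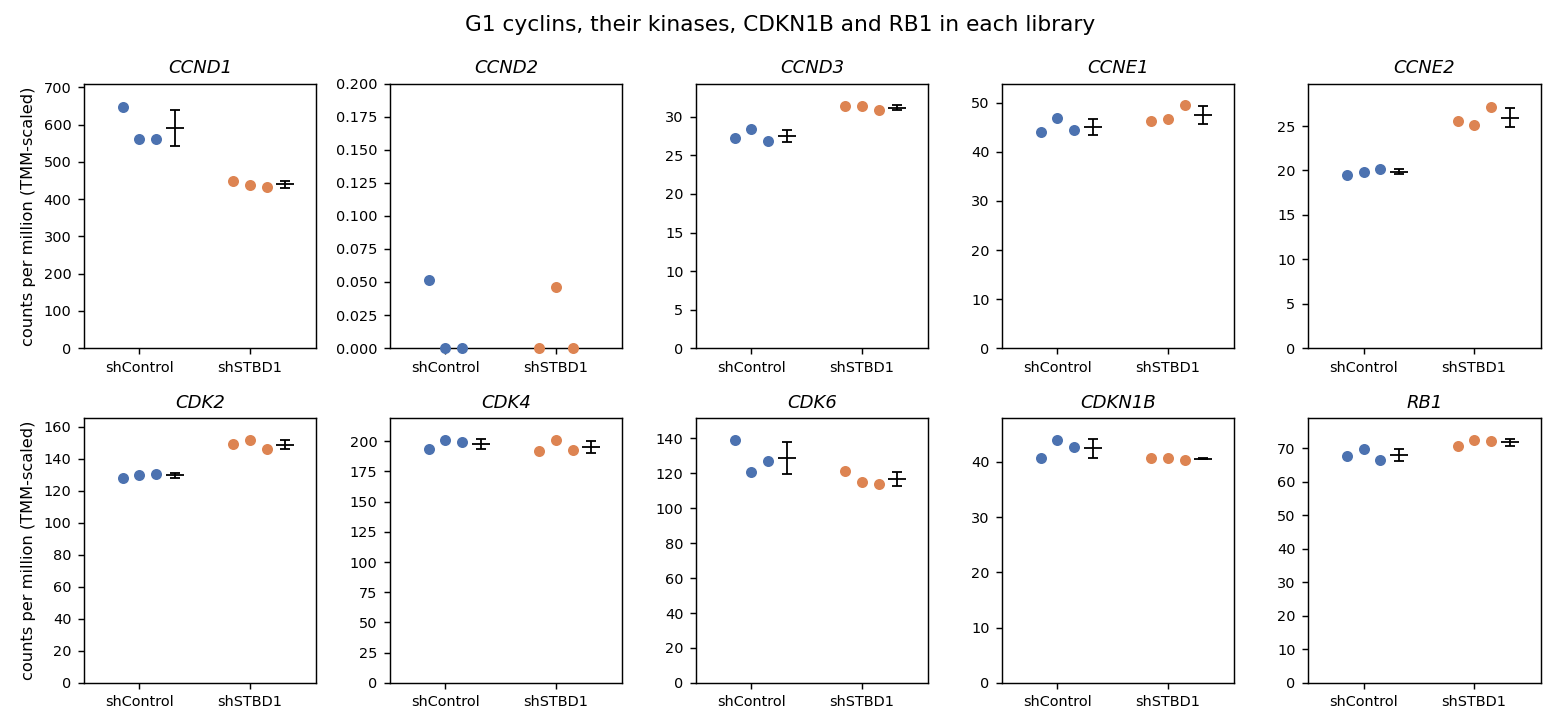
Each panel shows a gene, with its CPM on a linear axis that starts at 0 and 1 dot for each of the 3 shControl (blue) and 3 shSTBD1 (orange) libraries. The black bar is the mean and its whiskers the SD, except for CCND2, which had 1 count in each of 2 libraries and 0 in the other 4. The 3 shSTBD1 dots of CCND1 lie below all shControl dots, and those of CCND3, CCNE2, CDK2 and RB1 lie above them.

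CCND1 encodes cyclin D1, the D cyclin that dominated in these cells, and lies at chr11:69641156-69654474 on the plus strand (Hg38). Its CPM was 647, 561 and 563 in shControl 1, 2 and 3 and 449, 439 and 432 in shSTBD1 1, 2 and 3. All shSTBD1 values were thus below all control values, and shControl 1 stood above the other controls. The log2 fold change of CCND1 was -0.42 (SE 0.045), or 25.5% fewer counts, the largest in size among the 9 genes with all libraries. Without shControl 1, CCNE2 was at 0.37 and CCND1 at -0.36. CCND1 passed the threshold in each of the 15 alternative fits, in which its log2 fold change lay between -0.46 and -0.36, the smallest of them without shControl 1.

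CCND2 encodes cyclin D2 and lies at chr12:4269771-4305353 on the plus strand. A single count was assigned to it in shControl 1 and in shSTBD1 2, and none in the other 4 libraries. Since 3 counts in a library correspond to between 0.138 and 0.169 CPM, CCND2 was not detectable above this limit in either group and no fold change is given. The limit covers counting error only.

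CCND3 encodes cyclin D3, which like cyclin D1 partners CDK4 and CDK6, and lies at chr6:41934934-42050357 on the minus strand. Its CPM was 27.3, 28.5 and 26.8 in the shControl libraries and 31.4, 31.4 and 30.9 in the shSTBD1 libraries. The groups did not overlap, and the direction was opposite to that of CCND1. The log2 fold change was 0.18 (SE 0.054). This call was the least stable of the 5, since it was lost with DESeq2, with length offsets, with limma on TPM and when any library other than shControl 2 was left out.

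Within the D cyclins, CCND1 made up 91.3% ± 0.671 of the summed TPM in shControl and 87.3% ± 1.01 in shSTBD1 (both SD, n = 3). The sum of the D cyclins was 224 ± 11.7 TPM in shControl and 175 ± 8.54 TPM in shSTBD1 (both SD, n = 3). For neither quantity did the groups overlap. The gain of CCND3, from 19.5 to 22.2 TPM on average, was small beside the decrease of CCND1 from 204 to 153 TPM.

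CCNE1 encodes cyclin E1, which activates CDK2 late in G1, and lies at chr19:29811991-29824312 on the plus strand. It was at 44.04, 46.99 and 44.4 CPM in shControl and at 46.3, 46.8 and 49.6 CPM in shSTBD1. The groups overlapped, and the log2 fold change of 0.07 (SE 0.049) did not pass.

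CCNE2 encodes cyclin E2, the other partner of CDK2, and lies at chr8:94879770-94896678 on the minus strand. Its CPM was 19.5, 19.9 and 20.1 in shControl and 25.5, 25.2 and 27.2 in shSTBD1. The lowest shSTBD1 library was well above the highest control in counts, and the log2 fold change was 0.39 (SE 0.061), or 30.8% more counts. Its TPM, in contrast, was 11.2, 13.6 and 18.5 in shControl and 15.9, 18.1 and 17.1 in shSTBD1, and on that scale the groups overlapped because shControl 3 was the highest library of all. The effective length that RSEM assigned to CCNE2, the transcript length averaged over the 8 transcripts of the gene by their estimated abundance, was 1944, 1714 and 1244 bases in shControl and 1821, 1554 and 1786 bases in shSTBD1. It varied by 14.8% (CV over the 6 libraries), against a median of 4.19% over all genes tested. The counts themselves were estimated closely, with a posterior SD of at most 3.01% of the count. With limma on log2(TPM + 1) the log2 difference of CCNE2 was 0.25 and with length offsets in edgeR 0.27, and in neither did it pass, so the higher CCNE2 was a difference in counts that was not shown per length.

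**Figure D2:**
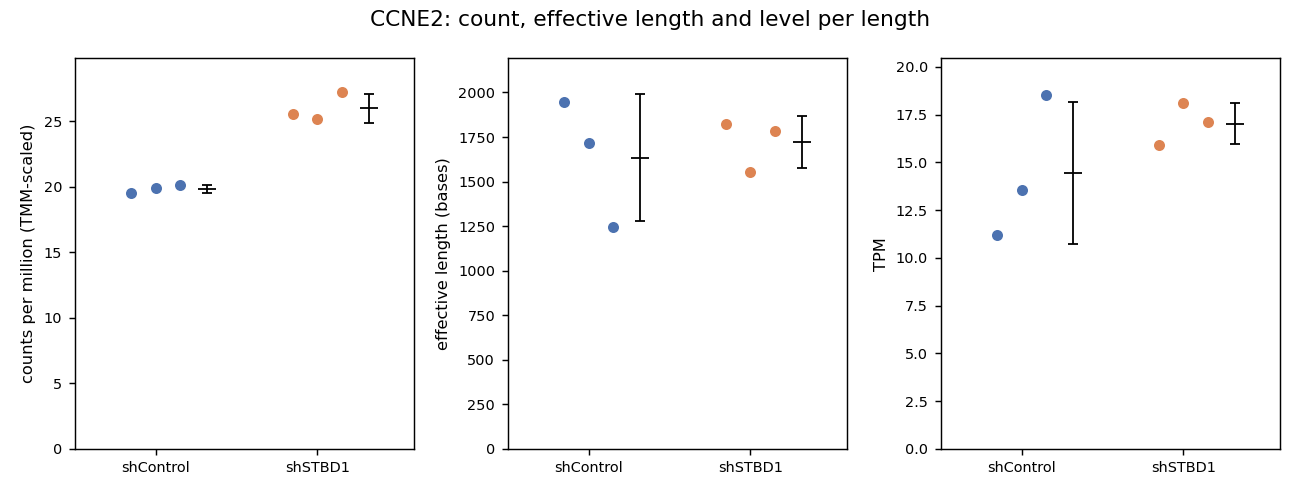
CCNE2 in the 3 shControl (blue) and 3 shSTBD1 (orange) libraries, as CPM (left), effective length in bases (middle) and TPM (right), with dots for libraries and black bars for mean and SD. The groups are apart in counts, whereas the control effective lengths spread from 1244 to 1944 bases and the control TPM from 11.2 to 18.5.

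Both E cyclins together were at 49.4 ± 6.09 TPM in shControl and 53.9 ± 2.14 TPM in shSTBD1 (both SD, n = 3), with overlapping groups. The CCNE1 to CCNE2 ratio of TPM was 2.504 ± 0.463 (SD, n = 3) and 2.17 ± 0.161 (SD, n = 3), and these overlapped too. CCNE1 was the more abundant E cyclin in every library.

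CDK2 encodes the kinase that the E cyclins activate and lies at chr12:55966781-55972789 on the plus strand. Its CPM was 128, 130.1 and 130.5 in shControl and 149, 152 and 146 in shSTBD1, so that both groups were tight and apart. The log2 fold change was 0.20 (SE 0.032), or 14.9% more counts. Its fold change hardly moved under any alternative, between 0.19 and 0.22, but it did not pass with length offsets or with limma on TPM, where 511 and 292 of all tested genes passed.

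CDK4, at chr12:57747727-57756013 on the minus strand, encodes the kinase partner of the D cyclins and was the steadiest member. Its CPM was 193, 201 and 199 in shControl and 192, 201 and 193 in shSTBD1. The log2 fold change was -0.02 (SE 0.033), and it passed in none of the alternatives.

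CDK6 encodes the second kinase of the D cyclins and lies at chr7:92604921-92836573 on the minus strand. Its CPM was 139, 120.9 and 127 in shControl and 121.3, 115 and 114 in shSTBD1. The groups met at their edges, since shSTBD1 1 exceeded shControl 2, and the log2 fold change was -0.14 (SE 0.046). Without shControl 1 it was -0.09 and did not pass, and the call was also lost without shControl 3, shSTBD1 2 or shSTBD1 3, with length offsets and with limma on TPM.

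The promoters of the D cyclin kinases are shown with the E-box CACGTG marked, a sequence that the transcription factor MYC binds. RefSeq promoter windows ran from 250 bases before to 50 bases after an annotated start (GRCh38.p14). For 6 of the 10 genes, namely CCND3, CCNE1, CDK4, CDK6, CDKN1B and RB1, 9 windows were searched. No window of CCND1, CCND2, CCNE2 or CDK2 was searched, so nothing is said of matches in these genes. The search was for the letters CACGTG, which read the same on both strands, and capitals mark each match. Of all 34943 promoter windows, 7.23% held at least 1 match and 0.0944% at least 3. The CDK4 window, chr12:57752261-57752560 on the minus strand, held 3, starting 216, 196 and 101 bases before the annotated start. Of the 2 CDK6 windows, that at chr7:92836524-92836823 on the minus strand held 1, within the transcribed part.
CDK4: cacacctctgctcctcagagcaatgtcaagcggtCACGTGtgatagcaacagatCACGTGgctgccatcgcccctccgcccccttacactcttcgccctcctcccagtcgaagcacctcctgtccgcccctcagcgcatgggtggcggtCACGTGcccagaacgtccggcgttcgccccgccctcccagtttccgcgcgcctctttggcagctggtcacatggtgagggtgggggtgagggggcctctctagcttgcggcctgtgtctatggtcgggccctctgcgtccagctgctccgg
CDK6: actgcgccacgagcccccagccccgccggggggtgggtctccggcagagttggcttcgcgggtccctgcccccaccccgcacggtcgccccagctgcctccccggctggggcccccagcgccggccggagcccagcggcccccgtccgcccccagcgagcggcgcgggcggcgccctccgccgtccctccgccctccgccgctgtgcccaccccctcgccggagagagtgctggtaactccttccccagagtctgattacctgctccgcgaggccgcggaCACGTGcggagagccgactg
The other 7 windows of these genes did not hold these letters. An annotated start need not be the outermost start of its gene. The RB1 window, chr13:48476200-48476499 on the plus strand, lies within the gene, and the sequence around the first base of RB1, 48303744, was not searched. The CDK4 window also lies within its gene, so its matches are not upstream of the outermost start, 57756013. The sequence around that base was not searched either. The windows of CDKN1B and CCND3 and the CDK6 window without a match lie within their genes too. A match is a description of sequence and not a site of binding, and whether MYC acts on CDK4 or CDK6 was not tested. MYC, named here after its values were seen, was at 197 ± 12.4 TPM in shControl and 220.3 ± 5.06 TPM in shSTBD1 (both SD, n = 3), a log2 fold change of 0.12 (SE 0.035, edgeR adjusted p = 0.022), beside the log2 fold changes of -0.02 for CDK4 and -0.14 for CDK6.

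CDKN1B encodes the inhibitor p27 and lies at chr12:12685498-12722369 on the plus strand. Its CPM was 40.7, 44.1 and 42.6 in shControl and 40.7, 40.7 and 40.4 in shSTBD1. The shSTBD1 libraries were nearly equal to each other and to the lowest control. The log2 fold change of -0.06 (SE 0.049) did not pass in any fit.

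RB1, at chr13:48303744-48599436 on the plus strand, was at 67.8, 69.8 and 66.4 CPM in shControl and at 70.7, 72.5 and 72.1 CPM in shSTBD1. All shSTBD1 libraries were above all controls, but by little, and the log2 fold change of 0.08 (SE 0.039) did not pass in edgeR or in any alternative. RNA levels do not measure the phosphorylation of RB1.

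**Figure D3:**
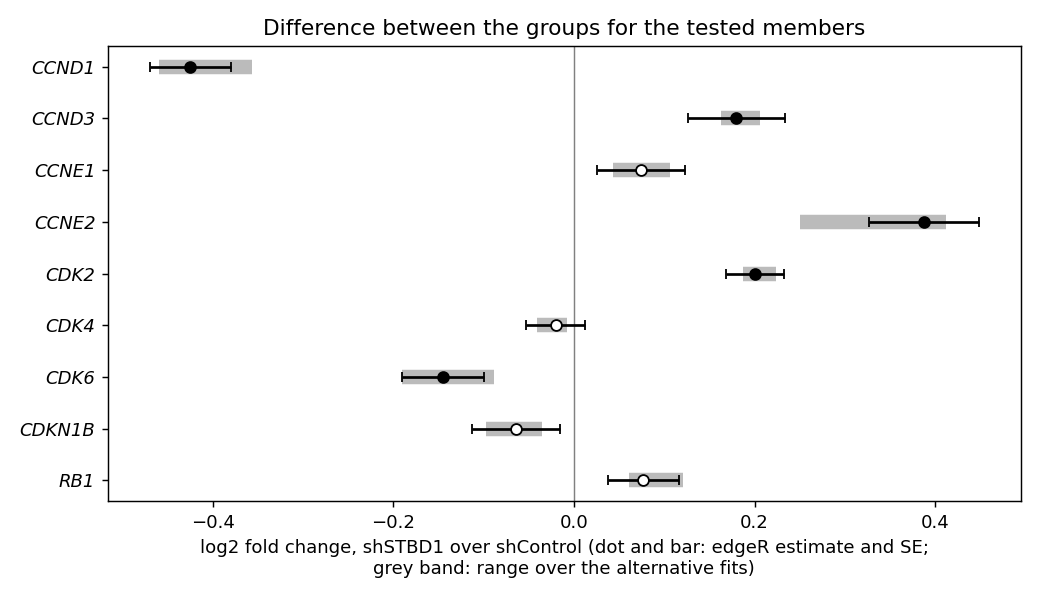
Log2 fold change of shSTBD1 over shControl on the horizontal axis for the 9 tested genes, as the edgeR estimate (dot, filled where the adjusted p was under 0.05) with its SE (whiskers) and the range over 15 alternative fits (grey band). CCND1 and CDK6 lie below 0, CCND3, CCNE2 and CDK2 above it, and the band of CCNE2 reaches from 0.25 to 0.41.

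Per length, the order of the genes in shControl was CCND1, CDK4, CDK2, CCNE1, CDKN1B, CCND3, RB1, CDK6 and CCNE2, followed by CCND2. The ranges of neighbours overlapped for CDKN1B with CCND3 and for CDK6 with CCNE2. CCNE2, from 11.2 to 18.5 TPM, also overlapped RB1, from 17.1 to 18.8 TPM, which is not its neighbour. In shSTBD1 the order was CDK4, CCND1, CDK2, CCNE1, CCND3, RB1, CDKN1B, CCNE2 and CDK6, followed by CCND2, with overlap only between RB1 and CDKN1B. The highest place thus passed from CCND1, at 204 ± 12.1 TPM in shControl and 153 ± 9.13 TPM in shSTBD1 (both SD, n = 3), to CDK4, at 170.4 ± 2.63 TPM (SD, n = 3) and 167 ± 2.15 TPM (SD, n = 3).

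The ratio of CCND1 to CDK4 in TPM was 1.2999, 1.17 and 1.13 in shControl and 0.935, 0.944 and 0.862 in shSTBD1. CCND1 exceeded its kinase CDK4 in each control and fell short of it in each shSTBD1 library. The ratio of the D cyclins to the E cyclins was 5.52, 4.37 and 3.91 in shControl and 3.43, 3.37 and 2.95 in shSTBD1, again without overlap but with a wide spread among the controls. The ratio of CDK2 to CDK4 was 0.460 ± 0.0213 in shControl and 0.543 ± 0.0240 in shSTBD1 (both SD, n = 3) and did not overlap. The ratio of CDK4 to CDK6, at 10.7 ± 0.607 (SD, n = 3) and 11.6 ± 1.06 (SD, n = 3), did overlap.

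**Figure D4:**
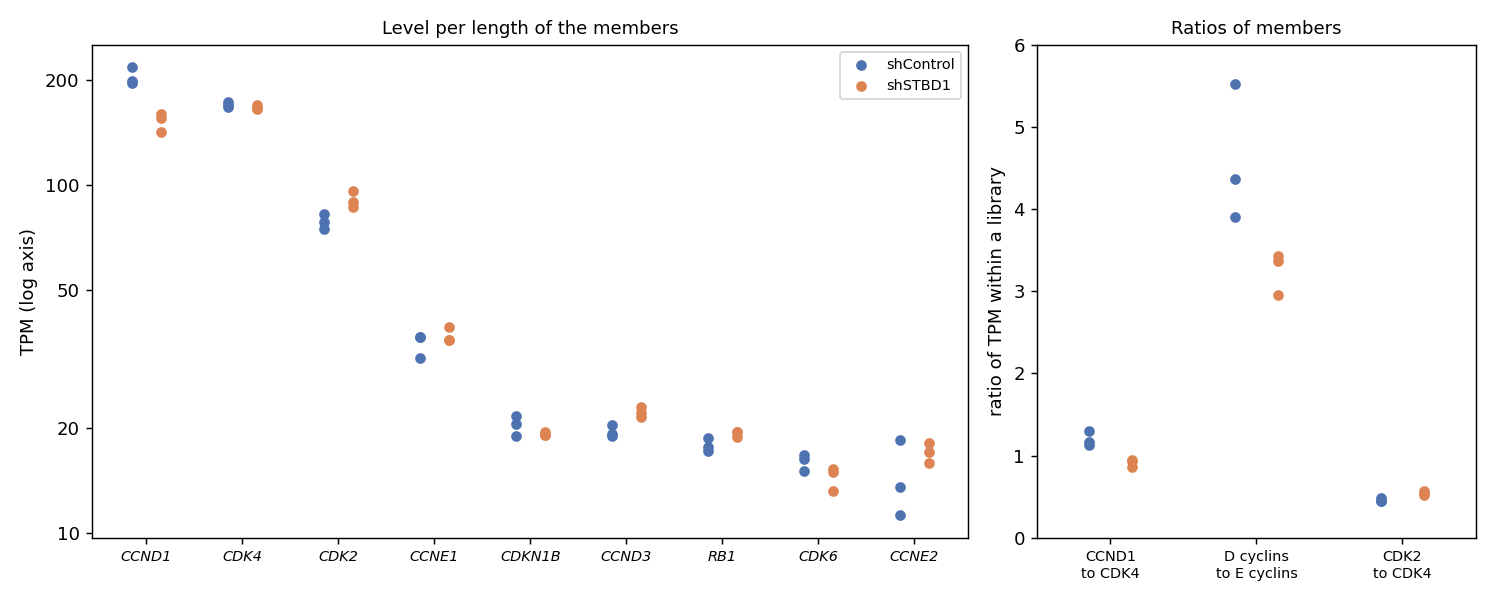
Left, TPM on a log axis for 9 genes in order of their shControl mean, with 1 dot per shControl (blue) and shSTBD1 (orange) library. CCND2, at or near 0 throughout, is left out. Right, ratios of TPM within each library on a linear axis from 0, where the CCND1 to CDK4 ratio is above 1 in the 3 controls and below 1 in the 3 shSTBD1 libraries.

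The genes around this pathway were described with 7 lists of 83 genes in all, of which 82 were tested. In edgeR 26 of them passed, 19 higher and 7 lower in shSTBD1, where 15.8% of all tested genes passed, with 8.22% higher and 7.54% lower. Their median log2 fold change was 0.02, beside 0.002 over all tested genes. With length offsets or limma on TPM 5 passed, all of them higher, and 15 passed when shSTBD1 1 or shSTBD1 2 was left out. Calls were lost over all tested genes too, from 2453 in the main fit to 511 with offsets and 292 and 290 with limma. Without shSTBD1 1 the total was 1570, and without shSTBD1 2 it was 1409. The smaller counts of single lists in these fits, given below, stand beside this loss over all genes. These lists share the libraries with the 10 genes, and their calls are no separate evidence for them.

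Of 6 other CDK inhibitors, 1 was higher and 0 lower. CDKN1A, the protein p21 and a p53 target, rose from 172 ± 7.87 TPM (SD, n = 3) to 228 ± 3.79 TPM (SD, n = 3), with a log2 fold change of 0.45 (SE 0.031, edgeR adjusted p = 6.9e-08), and passed in all 15 alternatives. The ratio of CDKN1A to CDKN1B in TPM was 8.41 ± 0.182 in shControl and 11.8 ± 0.174 in shSTBD1 (both SD, n = 3), without overlap. CDKN2A, whose product p16 inhibits CDK4 and CDK6, was at 62.4 TPM in shControl and 58.6 TPM in shSTBD1 on average and did not pass. This RNA level covers all transcripts of the gene and does not measure p16.

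Of 7 genes for relatives of RB1 and the MuvB core, which act beside it in repressing cell cycle genes, 0 passed in edgeR. At an unadjusted p of 0.05 the count was also 0 in edgeR, and it was 0 with DESeq2 and with limma at the adjusted threshold. Their log2 fold changes ran from -0.06 to 0.14.

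Of 9 genes that activate or brake CDKs, 3 were higher and 0 lower. WEE1, a kinase that inhibits CDK1 and CDK2 by phosphorylation, rose with a log2 fold change of 0.49 (SE 0.042, edgeR adjusted p = 8.1e-07) and passed in all 15 alternatives. CDC37, the cochaperone that helps CDK4 fold, rose by 0.18 on the log2 scale (SE 0.038, edgeR adjusted p = 0.0037). CDC25B, a phosphatase that removes the WEE1 mark, rose by 0.14 on that scale (SE 0.034, edgeR adjusted p = 0.0099). The members of this list that moved thus include both a brake and an activator. With length offsets or limma on TPM 1 of the 3 passed.

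Of 11 genes for the turnover of G1 cyclins and CDKN1B, 2 were higher and 1 lower. RBX1, the RING subunit of the cullin ligases, had a log2 fold change of 0.26 (SE 0.061, edgeR adjusted p = 0.0081). FBXW7, the F-box protein that targets cyclin E, had 0.20 (SE 0.054, edgeR adjusted p = 0.018), and CUL3, a cullin scaffold, had -0.17 (SE 0.041, edgeR adjusted p = 0.012). SKP2, the F-box protein for CDKN1B, did not pass, at 0.05 (SE 0.059). Without shSTBD1 3 the list had 1 call, and with length offsets or limma on TPM it had 0, with 1 gene at an unadjusted p of 0.05 in each.

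Of 17 genes for transcription factors of the D cyclin genes, 16 were tested, and 8 were higher and 0 lower. Over all tested genes, 8.22% were higher and 7.54% lower. Of the D cyclin genes themselves, CCND1 was lower, at -0.42, and CCND3 higher, at 0.18. FOS (0.42, SE 0.13, edgeR adjusted p = 0.030), JUNB (0.35, SE 0.038, edgeR adjusted p = 7.8e-06), EGR1 (0.23, SE 0.045, edgeR adjusted p = 0.0021) and FOSL1 (0.23, SE 0.043, edgeR adjusted p = 0.0019) had the largest log2 fold changes. These belong to the AP-1 and early response factors. The β-catenin gene CTNNB1 and its partner TCF7L2 did not pass, at -0.01 (SE 0.032) and -0.02 (SE 0.034), and LEF1 was under the filter. FOS passed in 7 of the 15 alternatives, EGR1 and FOSL1 in 12 each and JUNB in all of them. The 8 calls became 2 with length offsets or limma on TPM, 5 without shControl 2 and 4 without shSTBD1 1, all of them higher.

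Of 21 E2F target genes of G1/S, 4 were higher and 3 lower, and the median was -0.01. MCM6, a subunit of the replicative helicase, rose from 43.0 ± 0.405 TPM (SD, n = 3) to 70.5 ± 1.03 TPM (SD, n = 3), a log2 fold change of 0.74 (SE 0.032, edgeR adjusted p = 7.1e-10). The helicase subunits encoded by MCM3, MCM4, MCM5 and MCM7 did not pass, with log2 fold changes between -0.04 and -0.003, while MCM2 passed in the opposite direction to MCM6, at -0.11 (SE 0.033, edgeR adjusted p = 0.037). RRM1, the large subunit of ribonucleotide reductase, fell by 0.31 on the log2 scale (SE 0.036, edgeR adjusted p = 1.4e-05). E2F1 rose by 0.27 on that scale (SE 0.063, edgeR adjusted p = 0.0089) and POLA1, a DNA polymerase subunit, fell by 0.16 (SE 0.050, edgeR adjusted p = 0.037). POLA1 passed in 6 of the 15 alternatives and was at -0.11 without shControl 1. E2F1 passed in 10 of them, RRM1 in 12 and MCM6 in all 15. The list's 7 calls became 1 with length offsets or limma on TPM, 4 without shControl 3, and 2 without shSTBD1 1 or without shSTBD1 2. The E cyclin genes, themselves E2F targets, stood beside these at 0.39 for CCNE2 and 0.07 for CCNE1 in the same fit. CCNE1 did not pass, and CCNE2 did not pass with length offsets or limma on TPM.

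Of 12 G2/M genes, 1 was higher and 3 lower. The proliferation marker MKI67 fell by 0.20 on the log2 scale (SE 0.050, edgeR adjusted p = 0.013), the kinetochore gene CENPF by 0.17 (SE 0.038, edgeR adjusted p = 0.0072) and CCNF, the gene of cyclin F, by 0.12 (SE 0.039, edgeR adjusted p = 0.038). CDC20, the activator of the anaphase-promoting complex, rose by 0.13 (SE 0.029, edgeR adjusted p = 0.0070). MKI67 was at -0.12 without shControl 1, and its call was lost with DESeq2, length offsets, limma on TPM and without shSTBD1 2. CCNF passed in 6 of the 15 alternatives, CENPF in 11 and CDC20 in 12. With DESeq2 the list had 1 call higher and 1 lower, and without shSTBD1 2 it had 1 higher and 0 lower. With length offsets and with limma on log2(TPM + 1) it had 0 calls, and at an unadjusted p of 0.05 it had 4 and 5.

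**Figure D5:**
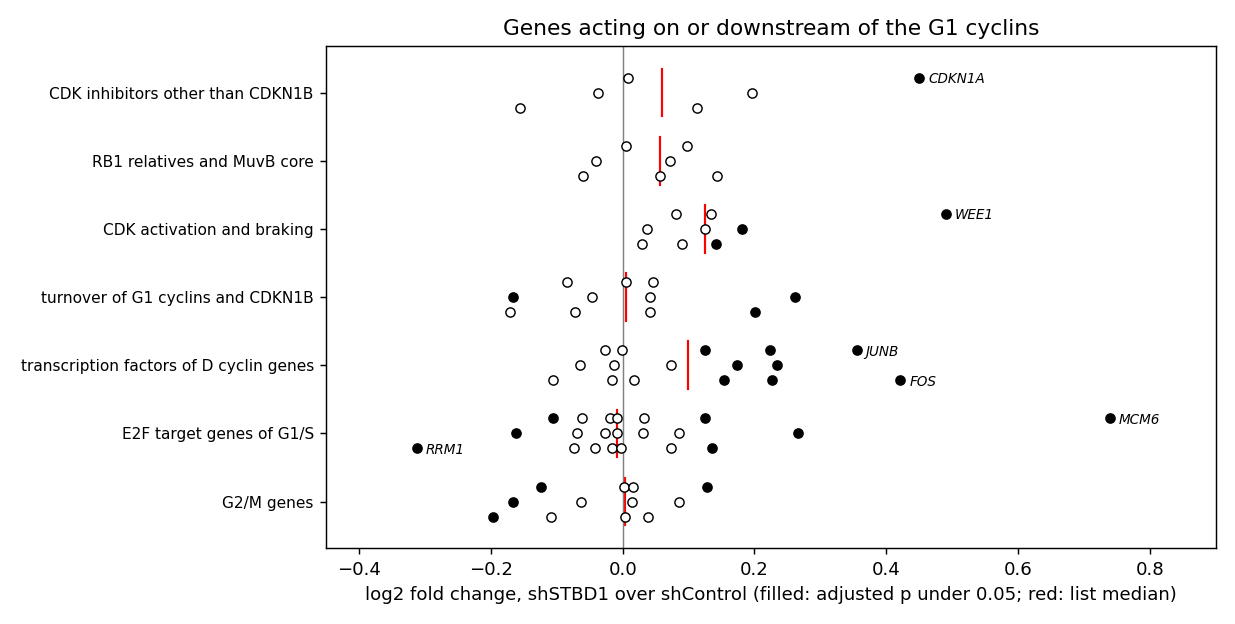
Log2 fold change of shSTBD1 over shControl on the horizontal axis for the 82 tested genes of 7 lists, with filled dots for an edgeR adjusted p under 0.05, open dots for the rest and a red line for each list's median. Dots are shifted vertically only to keep them apart. CDKN1A, WEE1, JUNB, FOS and MCM6 lie farthest to the right and RRM1 farthest to the left.

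The genes most like CCND1 across the 6 libraries, by Pearson correlation of log2 CPM over all tested genes, were NOMO1 (r = 0.999), EFNB2 (r = 0.999), LRP5 (r = 0.997), CTSD (r = 0.997) and MCFD2 (r = 0.997). The 6 points hold the difference between the groups, which by itself gives a high r, so these values are a description only. All 5 genes were lower in shSTBD1, with log2 fold changes from -0.28 for CTSD to -0.20 for MCFD2, each smaller in size than that of CCND1. NOMO1 has near-identical copies in the genome, between which its reads could be split, and the posterior SD of its count was at most 0.899% of the count.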

How the data were processed

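RNA-seq of HCT116 cells was grouped by hairpin, as the labels give it, into 3 shControl and 3 shSTBD1 libraries. The authors aligned filtered paired-end reads with STAR 2.7.1a against Hg38 and gene models of Ensembl release 93, and RSEM 1.3.1 estimated abundance, as the methods and the submitters' processing notes state. They deposited, per library and gene, an expected count, which is not normalized, and TPM, which the authors scaled by effective length to the same total in each library. Whether counting used strand is not given in the sources used here.

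Expected counts were rounded, filtered with filterByExpr and normalized by TMM. The 2 groups were tested in edgeR 4.0.16 (R 4.3.3) by the quasi-likelihood F-test over 15566 genes, with Benjamini-Hochberg adjustment and a threshold of 0.05. The methods of the study name DESeq2, which was run as an alternative (DESeq2 1.42.0), and limma 3.58.1 was applied to log2(TPM + 1) and log2(TPM + 0.1). Symbols were matched for 57754 genes. Gene positions are from GENCODE release 44 on the same build. The scripts were tested on simulated data. A gene of a list was named if it was among the 4 largest log2 fold changes past the threshold or was not tested; SKP2, CDKN2A, CTNNB1, TCF7L2, MYC, MCM2, MCM3, MCM4, MCM5 and MCM7 were named after their values were seen. The 10 genes, the lists and the tests were chosen with earlier results of these data known.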

Additional observations from a re-analysis of the deposited data

How the results depend on the processing

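The 15 alternatives changed the normalization, the filter, the test, the unit, the treatment of transcript length or the libraries used. No log2 fold change of the 9 tested genes or of STBD1 changed sign. Of these 9 genes 5 passed, but 1 did with effective-length offsets, 1 with limma on log2(TPM + 1) and 1 with limma on log2(TPM + 0.1), and between 3 and 5 when a library was left out. The gene that passed in every one was CCND1. Over all genes, 2453 passed in edgeR, but 511 did with effective-length offsets, 292 and 290 with the limma fits, 1693 with DESeq2, and between 1409 and 2577 when a library was left out. Of the genes in the lists, 26 passed, but 5 did in each of those 3 fits that use length, and between 15 and 26 without a library. CCND3 did not pass with DESeq2 (0.178), with offsets (0.195) or with limma (0.177 and 0.184), and ran from 0.163 to 0.206 without a library. CCNE2 did not pass with offsets (0.268) or limma (0.250 and 0.266). CDK2 did not pass with offsets (0.224) or limma (0.209 and 0.211). CDK6 did not pass with offsets (-0.138) or limma (-0.139 and -0.147), and ran from -0.190 to -0.0891 without a library. STBD1 did not pass with limma (-0.541 and -0.651). The cause was not tested.

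With the replicate block, 5 of the 9 genes and 26 genes of the lists passed, and it changed none of the calls of the 10 genes. Deviations of libraries of the same number correlated at 0.0708, 0.0676 and -0.00841 for replicates 1, 2 and 3. Those of different numbers correlated at -0.0216 on average and at 0.0101 at most, which was below the values of replicates 1 and 2. The main fit did not pair the libraries by number, and whether the numbers mark pairs was not tested. Depth limits CCND2, which stayed under 3 counts in every library.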
